A study of Mus musculus with 14 samples.

Results

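Transcripts of 10 adipogenic and lipid genes were measured in 14 libraries of sorted mouse knee synovial cells. The list was drawn up by name, with earlier results of these data known, and holds the regulators Pparg, Cebpa and Cebpb, the secreted products Adipoq and Cfd, the lipid droplet protein Plin1, and the lipid handling genes Fabp4, Cd36, Lpl and Apoe. All 10 had an entry among the 47729 genes of the count table, and 9 had at least 1 count in some library. A low-count filter kept 8 of them for testing, and Plin1 and Cfd did not pass it.

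The sort removed cells with TER119, CD31 or CD45 and kept those with CD51, an integrin chain. The arthritic CD105+ group holds 5 libraries of CD200-CD105+ cells and the arthritic CD200+ group holds 5 libraries of CD200+CD105- cells, both from C57BL6 mice of 16 weeks with antigen-induced arthritis. In this model the antigen is mBSA, a methylated form of bovine serum albumin. It is first given with complete Freund's adjuvant (CFA) and later injected into the knee, and joints were harvested 10 days after that. The non-immunized CD200+ group holds 4 libraries of CD200+CD105- cells from mice of the same strain and age that were given phosphate buffered saline (PBS). No library of CD105+ cells from non-immunized mice is analysed here, so the CD105+ comparisons concern the sorted population in arthritis, or population and disease together. Whether the samples within a group are from different animals is not stated in the labels, so each p-value measures the spread between these samples, which may be technical.

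Adipogenesis is driven by a cascade in which C/EBP beta and C/EBP delta come early and induce PPAR gamma and C/EBP alpha, which then maintain each other and switch on the genes of the fat cell. Those genes cover uptake of fatty acids (Lpl, Cd36), their carriage in the cell (Fabp4), storage in droplets (Plin1) and secreted adipokines (Adipoq, Cfd). In bone marrow, stromal cells that surround vessels and are marked by the leptin receptor carry transcripts of several of these genes without holding large fat droplets.

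Sorted samples held 200 to 500 cells. Total counts were 12177437 to 40331071 per library, of which 2919666 to 18553803 fell on mouse genes and the rest on added spike-in RNA. Spike-ins took over 80% of the counts in libraries 2, 5 and 6, of which 5 and 6 are arthritic and 2 is non-immunized CD200+. Library 11 stood apart in the CD105+ group: the summed level of 14 macrophage markers was 6913 CPM there (counts relative to the gene counts of a library, TMM-scaled), with all 14 detected, against 4.24 to 20.1 CPM in the other CD105+ libraries. In CD200+ libraries that sum was 0 to 378 CPM in arthritis and 0 to 845 CPM without immunization. Neutrophil markers were highest in non-immunized CD200+ libraries 3 and 4, at 7014 and 2291 CPM. B and plasma cell markers were highest in library 3, at 6786 CPM. Erythroid markers, which the TER119 gate should lower, summed to 26966 to 248020 CPM in arthritic CD105+ libraries, against 4.25 to 10408 CPM in arthritic CD200+ and 1174 to 10197 CPM in non-immunized CD200+ libraries. Osteoblast markers summed to 123 to 1522 CPM in arthritic CD105+ libraries, against 25866 to 46999 CPM in arthritic CD200+ and 46681 to 132050 CPM in non-immunized CD200+ libraries. The sort marker Cd200 averaged 2.30 ± 5.14 CPM in arthritic CD105+ libraries (SD, n = 5), 420 ± 98.8 CPM in arthritic CD200+ libraries (n = 5) and 593 ± 178 CPM in non-immunized CD200+ libraries (n = 4). Eng, which encodes CD105, averaged 6.63 ± 4.87 CPM in arthritic CD105+, 0.504 ± 0.584 CPM in arthritic CD200+ and 5.29 ± 5.71 CPM in non-immunized CD200+ libraries. Its level in CD105+ libraries did not differ from that in arthritic CD200+ libraries past the threshold (log2 fold change 3.64, SE 1.64, edgeR adjusted p = 0.170).

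Adipoq was found in every CD200+ library and had no count in any CD105+ library. It encodes adiponectin, the main adipokine of fat cells, and lies on chromosome 16 at 23146536 to 23158028 on the plus strand of GRCm38. All 5 arthritic CD105+ libraries were at 0. The arthritic CD200+ libraries 5 to 9 held 138, 1670, 446, 135 and 283 CPM, and the non-immunized CD200+ libraries 1 to 4 held 1796.5, 61.1, 1625 and 375 CPM. Its rank by CPM among the genes with a count ran from 61 of 9772 in library 6 to 1284 of 15018 in library 8 in arthritis. Without immunization it ran from 46 of 17068 in library 1 to 3031 of 12095 in library 2. The groups did not overlap, and Adipoq was at least 11158-fold lower in arthritic CD105+ than in arthritic CD200+ cells, with the CD105+ group set to a floor of 3 counts over the group. The edgeR adjusted p was 0.000855. Library 6, one of those over 80% spike-ins, carried 62.5% of the arthritic CD200+ level, and without it the bound was at least 5228-fold. Against non-immunized CD200+ cells it was at least 20141-fold lower (adjusted p = 0.000709). In bulk samples, fewer cells that express a gene and less of its RNA per cell cannot be told apart.

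The 250 bases before the start of Adipoq are shown because it is the member that passed the test, beside those of Cd36, the member with the opposite direction. Capitals mark matches to the CCAAT pentamer or the nuclear receptor motif AGGTCA on either strand, where ATTGG and TGACCT are the opposite-strand readings. Both sequences are from RefSeq for GRCm38.p6, at chr16:23146286-23146535 on the plus strand and chr5:17835897-17836146 on the minus strand.
Adipoq: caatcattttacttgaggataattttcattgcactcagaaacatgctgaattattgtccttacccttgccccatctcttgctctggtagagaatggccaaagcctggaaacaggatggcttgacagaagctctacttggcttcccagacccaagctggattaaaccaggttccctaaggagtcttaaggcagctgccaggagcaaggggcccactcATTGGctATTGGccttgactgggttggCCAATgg
Cd36: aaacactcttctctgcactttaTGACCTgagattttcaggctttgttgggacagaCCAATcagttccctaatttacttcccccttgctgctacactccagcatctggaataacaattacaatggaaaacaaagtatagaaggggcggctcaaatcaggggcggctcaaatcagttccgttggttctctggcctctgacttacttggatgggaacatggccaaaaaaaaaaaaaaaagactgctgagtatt
The Adipoq window holds 3 CCAAT matches, of which the nearest spans positions -7 to -3 from the start, and no AGGTCA. The Cd36 window holds 1 CCAAT match at -195 to -191 and 1 AGGTCA match on the opposite strand at -228 to -223. CCAAT was present in 33.8% of the 32851 promoter windows of the same length and AGGTCA in 14.0%, so neither motif is rare. The direct repeat of AGGTCA with a spacer of 1 base (DR1), the kind of element that PPAR gamma binds with RXR, was in 0.0335% of windows and in neither of these. The C/EBP palindrome TTGCGCAA was in 0.164% and its looser form TTNCGNAA in 2.04% of windows, and no member window held either. RefSeq windows were matched for 8 members with 12 start sites, and not for Fabp4 and Lpl.

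**Figure D1:**
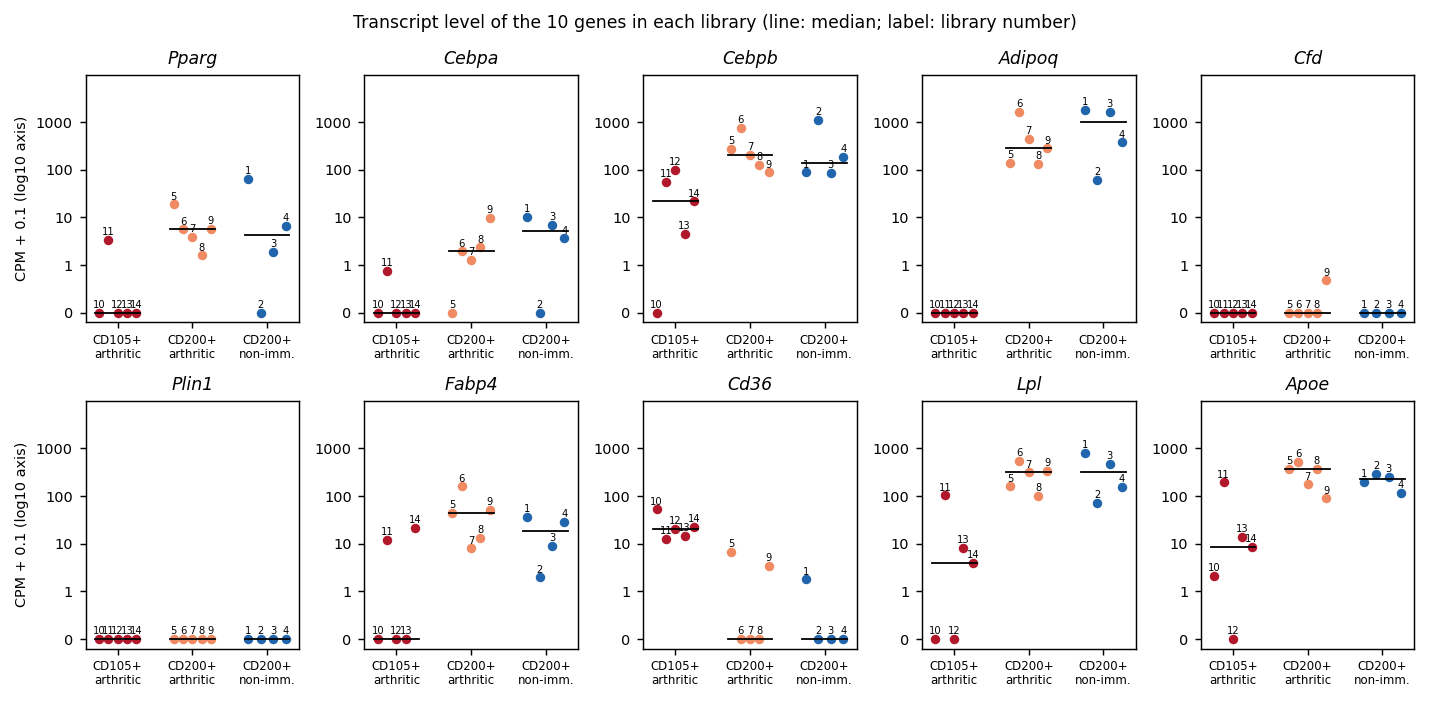
CPM of each of the 10 genes in each library on a log10 axis of CPM + 0.1, with arthritic CD105+, arthritic CD200+ and non-immunized CD200+ libraries from left to right; points are libraries with their number and lines are group medians. Adipoq is at 0 in all 5 CD105+ libraries and between 61.1 and 1796.5 CPM in the 9 CD200+ libraries, while Cd36 runs the other way, with 12.4 to 52.6 CPM in CD105+ libraries.

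Among the 3 transcription factors, Cebpb was the most abundant and Pparg and Cebpa were low. Transcript length differs between genes, so levels are compared as CPM per kb of the principal transcript. On that scale Cebpb averaged 23.9 in arthritic CD105+, 192 in arthritic CD200+ and 244 in non-immunized CD200+ libraries. Pparg averaged 0.367, 3.98 and 10.3 CPM per kb, and Cebpa 0.0503, 1.13 and 1.95 CPM per kb, in the same groups.

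Pparg encodes PPAR gamma, the nuclear receptor required for fat cell formation, and lies on chromosome 6 at 115360951 to 115490399. It was found in 1 of 5 arthritic CD105+ libraries, at 3.24 CPM in library 11, and was at 0 in the other 4. The arthritic CD200+ libraries 5 to 9 held 18.6, 5.48, 3.85, 1.503 and 5.68 CPM. The non-immunized CD200+ libraries 1 to 4 held 64.4, 0, 1.77 and 6.51 CPM. The CD105+ and CD200+ ranges overlapped only through library 11 in arthritis, and library 1 stood far above the other non-immunized libraries. The change in arthritic CD105+ against arthritic CD200+ cells was -3.39 on the log2 scale (SE 2.01, edgeR adjusted p = 0.318). Without library 11 it passed the threshold (edgeR adjusted p = 0.0402). That omission leaves no Pparg count in the CD105+ group, so no fold bound is drawn from it.

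Cebpa, which encodes C/EBP alpha, lies on chromosome 7 at 35119293 to 35121928. In arthritic CD105+ cells it was found only in library 11, at 0.660 CPM. Arthritic CD200+ libraries 5 to 9 held 0, 1.83, 1.21, 2.25 and 9.59 CPM, and non-immunized CD200+ libraries 1 to 4 held 10.1, 0, 6.84 and 3.55 CPM. Both CD200+ groups therefore had 1 library at 0, which are libraries 5 and 2. The difference between arthritic CD105+ and arthritic CD200+ cells was -4.32 (log2, SE 1.95), which edgeR did not call (adjusted p = 0.171). DESeq2 called it at an adjusted p of 0.0492. With single libraries left out, library 11 included, edgeR still did not call it (lowest adjusted p = 0.0571). Against non-immunized CD200+ cells it was -5.10 (log2, SE 2.05, edgeR adjusted p = 0.115). Without library 11 it passed the threshold (edgeR adjusted p = 0.0435). That omission leaves no Cebpa count in the CD105+ group, so no fold bound is drawn from it.

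Cebpb encodes C/EBP beta, an early factor that is also induced in inflammation and acute stress, and lies on chromosome 2 at 167688915 to 167690418. Arthritic CD105+ libraries 10 to 14 held 0, 55.6, 98.3, 4.45 and 21.6 CPM. Arthritic CD200+ libraries 5 to 9 held 274, 745, 209, 125 and 87.8 CPM. Non-immunized CD200+ libraries 1 to 4 held 88.6, 1104, 84.7 and 188 CPM. Only CD105+ library 12 reached into the CD200+ range, and library 2 had the highest level of all. The difference between arthritic CD105+ and CD200+ cells was -3.00 (log2, SE 1.21), short of the threshold (edgeR adjusted p = 0.126). Immediate early genes, 12 markers of recent stimulation or tissue dissociation, summed to 250.9 to 3195 CPM in arthritic CD105+ libraries, against 5376 to 10352 CPM in arthritic CD200+ and 6118 to 82822 CPM in non-immunized CD200+ libraries. They were highest in library 12 among CD105+ libraries and in library 2 among non-immunized ones, the same libraries that were highest for Cebpb. Among arthritic CD200+ libraries the 2 did not match: the sum was highest in library 5 (10352 CPM) and Cebpb in library 6. In library 6 the sum was 7908 CPM. The part of these markers in the Cebpb difference was not tested. Tmem189 overlaps Cebpb on the opposite strand with 1205, 3043 and 2232 counts in the arthritic CD105+, arthritic CD200+ and non-immunized CD200+ groups. How the counting treated strand is not known from these sources, so reads of the pair cannot be told apart. The opposite-strand genes at Pparg (Gm44079) and Cebpa (Gm45091) had at most 41 counts in a group.

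Cfd and Plin1, which mark mature fat cells, were at or near 0. Cfd, which encodes adipsin (complement factor D), lies on chromosome 10 at 79890853 to 79892655 and was found in 1 library, arthritic CD200+ library 9, with 6 counts or 0.379 CPM. Plin1, which encodes the perilipin that coats the droplet of fat cells, lies on chromosome 7 at 79720218 to 79732903 and had no count in any of the 14 libraries. The 3 counts taken as the floor are 0.0479, 0.0577 and 0.0540 CPM over the arthritic CD105+, arthritic CD200+ and non-immunized CD200+ groups, so a Plin1 level under these values was not detectable.

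The wider list of 12 mature adipocyte markers had the same split. Its 3 defining genes are Adipoq, Plin1 and Cidec, a droplet fusion protein, and of these Adipoq alone was found in CD200+ libraries while Cidec had counts only in CD105+ library 12. Lep, Retn and Adig were at 0 everywhere. Summed over the list, levels were 3.54 to 17.1 CPM in arthritic CD105+, 138 to 1729 CPM in arthritic CD200+ and 138 to 2275 CPM in non-immunized CD200+ libraries. Beside Adipoq, those sums in CD200+ libraries came mainly from Car3, a carbonic anhydrase abundant in fat, and Thrsp, a regulator of lipid synthesis. The defining droplet genes Plin1 and Cidec were thus at or near 0 in every group, while Adipoq was not.

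**Figure D2:**
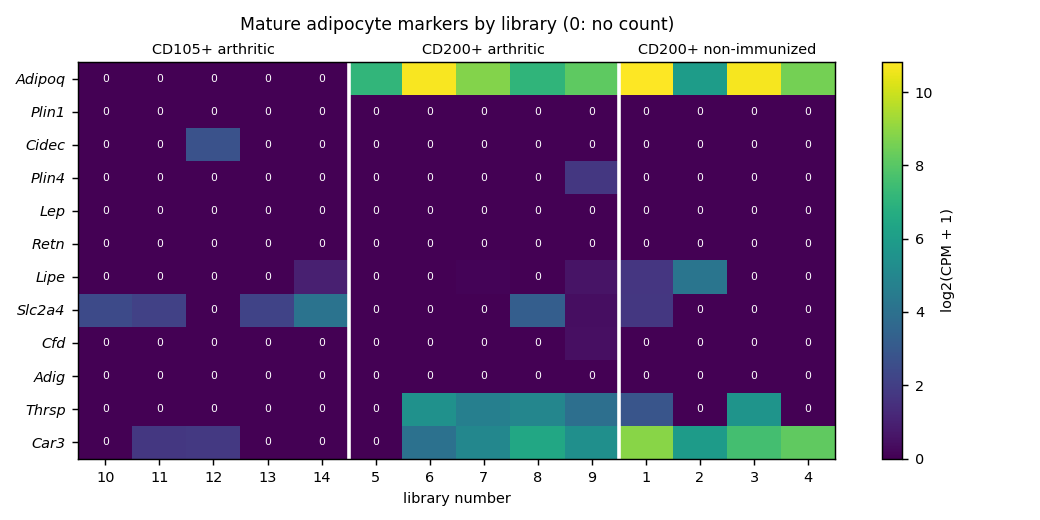
Levels of 12 mature adipocyte markers in each library as log2(CPM + 1), with arthritic CD105+ libraries 10 to 14 on the left, arthritic CD200+ libraries 5 to 9 in the middle and non-immunized CD200+ libraries 1 to 4 on the right; 0 marks a gene with no count. Adipoq, Thrsp and Car3 carry the CD200+ signal, while Plin1, Lep, Retn and Adig are at 0 in all 14 libraries.

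The lipid handling genes fell into 3 patterns, with Lpl and Apoe abundant in CD200+ cells, Fabp4 intermediate, and Cd36 found in every CD105+ library. In CPM per kb, Apoe averaged 30.8 in arthritic CD105+, 218 in arthritic CD200+ and 154 in non-immunized CD200+ libraries. Lpl averaged 5.59, 71.5 and 91.6 CPM per kb, Fabp4 7.38, 62.0 and 20.98, and Cd36 7.22, 0.590 and 0.124, in the same groups. By this measure Adipoq, Apoe and Cebpb were the highest of the 10 genes in arthritic CD200+ cells, at 414, 218 and 192 CPM per kb. The spread between libraries exceeded the gaps between those 3.

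Lpl encodes lipoprotein lipase, which releases fatty acids from circulating triglycerides, and lies on chromosome 8 at 68880491 to 68907448. Arthritic CD105+ libraries 10 to 14 held 0, 103, 0, 8.22 and 3.84 CPM. Arthritic CD200+ libraries 5 to 9 held 160, 551, 316, 99.6 and 344 CPM, and non-immunized CD200+ libraries 1 to 4 held 809, 72.0, 468 and 158 CPM. All but library 11 of the CD105+ libraries lay below every CD200+ library. The arthritic CD105+ against CD200+ difference was -3.67 (log2, SE 1.47), short of the threshold (edgeR adjusted p = 0.120). It was -6.56 (adjusted p = 0.0138) without library 11, and DESeq2 called it with all libraries (adjusted p = 0.0338).

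Apoe encodes apolipoprotein E, a lipoprotein component also made in quantity by macrophages, and lies on chromosome 7 at 19696109 to 19699188. Arthritic CD105+ libraries 10 to 14 held 2.01, 193, 0, 13.7 and 8.35 CPM. Arthritic CD200+ libraries 5 to 9 held 371, 517, 177, 379 and 89.5 CPM, and non-immunized CD200+ libraries 1 to 4 held 197, 295, 257 and 119 CPM. Again library 11 alone of the CD105+ libraries reached CD200+ levels. The difference between arthritic CD105+ and CD200+ cells was -2.82 (log2, SE 1.28, edgeR adjusted p = 0.175), and -5.65 (adjusted p = 0.00959) without library 11. In library 11 the macrophage gene Lyz2 was at 4558 CPM. The part of macrophage RNA in the Pparg, Lpl and Apoe values of that library was not tested.

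Fabp4, a fatty acid carrier of fat cells, macrophages and small vessels, lies on chromosome 3 at 10204088 to 10208576. It was at 11.9 and 21.1 CPM in arthritic CD105+ libraries 11 and 14 and at 0 in the other 3. Arthritic CD200+ libraries 5 to 9 held 45.1, 159.9, 7.85, 13.0 and 51.9 CPM, and non-immunized CD200+ libraries 1 to 4 held 36.0, 1.87, 9.05 and 28.3 CPM. The ranges of the 3 groups overlapped. Arthritic CD105+ against CD200+ cells gave -3.06 (log2, SE 1.68, edgeR adjusted p = 0.272). Endothelial markers, 12 in number, summed to 46.2 to 72.6 CPM in arthritic CD105+, 0.305 to 177 CPM in arthritic CD200+ and 0.187 to 57.4 CPM in non-immunized CD200+ libraries, and their part was not tested.

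Cd36, a scavenger receptor that takes up long-chain fatty acids, lies on chromosome 5 at 17781690 to 17888801. It was the member with counts in all 5 arthritic CD105+ libraries, at 52.6, 12.4, 20.6, 14.4 and 22.7 CPM in libraries 10 to 14. Arthritic CD200+ libraries 5 and 9 held 6.67 and 3.34 CPM and the other 3 were at 0. Non-immunized CD200+ library 1 held 1.69 CPM and the other 3 were at 0. All CD105+ libraries thus lay above all CD200+ libraries. The edgeR difference to arthritic CD200+ cells was 3.61 (log2, SE 1.95) and did not pass (adjusted p = 0.265), and that to non-immunized CD200+ cells was 5.79 (SE 2.39, adjusted p = 0.123). Library 10, the highest for Cd36, also had the highest erythroid sum, 248020 CPM. The other CD105+ libraries did not follow the same order. Library 12 had the lowest erythroid sum of them, 26966 CPM, with Cd36 at 20.6 CPM, against 72025 and 14.4 CPM in library 13. The part of erythroid RNA was not tested.

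Of the 8 tested members, 1 (Adipoq) was lower and 0 were higher in arthritic CD105+ than in arthritic CD200+ cells at an edgeR adjusted p under 0.05. Of all 15015 genes tested, 6.48% were called lower and 4.79% higher. Their median log2 fold change was -3.22, with 7 of 8 point estimates below 0, beside -0.05 over all tested genes. Groups did not overlap for Adipoq, lower, and for Cd36, higher, where 6.33% and 10.4% of all tested genes had groups apart in these directions. With library sizes taken from the spike-ins, the median over all genes was 1.22 in place of -0.05. On that scale Adipoq kept its call (adjusted p = 0.000727), Fabp4 turned to 0.0038, and the other 5 lower members kept their sign, with Apoe at -0.34 and Pparg at -0.81. DESeq2 called 3 members (Adipoq, Lpl and Cebpa), where it called 20.8% of all genes in either direction. Limma voom with sample weights called 7 members, all but Fabp4, where it called 30.8% of all genes.

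Against non-immunized CD200+ cells, 1 of the 8 tested members (Adipoq) was likewise lower in arthritic CD105+ cells and 0 were higher, where 7.63% and 5.57% of all tested genes were called lower and higher. Both comparisons share the CD105+ libraries. Groups were apart for Adipoq, lower, and Cd36, higher, beside 11.5% and 12.5% of all tested genes. DESeq2 called 6 members where it called 23.5% of all genes, and limma voom called 7 where it called 33.3%. Cebpb gave -3.35 (log2, SE 1.26) and Lpl -4.03 (SE 1.52), each with an edgeR adjusted p of 0.0939, Pparg -4.76 (SE 2.18, adjusted p = 0.164), Apoe -2.32 (SE 1.30, adjusted p = 0.263) and Fabp4 -1.50 (SE 1.65, adjusted p = 0.598). Without library 11, Pparg, Cebpa, Lpl and Apoe passed as well. Cd36 passed without library 1 (edgeR adjusted p = 0.0488), the only non-immunized library with a Cd36 count. That omission sets the non-immunized group to 0, so no fold bound is drawn from it. With all libraries Cd36 averaged 24.5 CPM in CD105+ and 0.421 CPM in non-immunized CD200+ libraries (log2 fold change 5.79, edgeR adjusted p = 0.123).

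**Figure D3:**
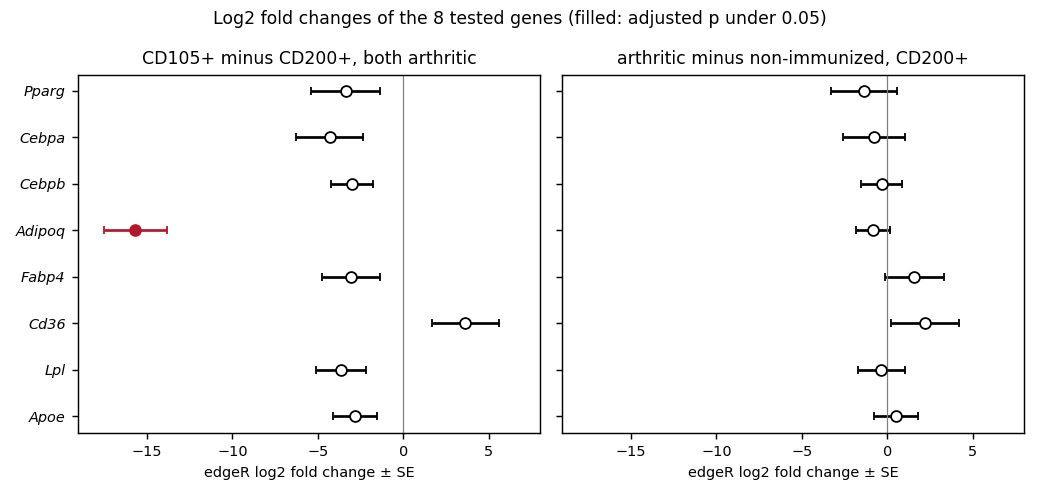
edgeR log2 fold changes with SE of the 8 tested genes, for arthritic CD105+ minus arthritic CD200+ cells on the left and arthritic minus non-immunized CD200+ cells on the right; filled points have an adjusted p under 0.05. Adipoq is the 1 filled point, at a fitted -15.67 that depends on how a group at 0 is treated, and all 8 genes on the right lie within 2 SE of 0.

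In CD200+ cells, no member passed the test between arthritic and non-immunized mice. edgeR called 0.0% of the 15015 genes in this comparison (0 at an adjusted p under 0.05, 915 at an unadjusted p under 0.05), and DESeq2 called 347 and limma voom 4. DESeq2 and limma voom called none of the members or the other pathway genes, where they called 2.16% and 0.0266% of all genes and 6.09% had an unadjusted edgeR p under 0.05. Adipoq averaged 534 ± 648 CPM in arthritic (SD, n = 5) and 964.5 ± 874 CPM in non-immunized CD200+ libraries (n = 4), a log2 difference of -0.85 with an SE of 0.98 and an adjusted p of 1.0. Lpl averaged 294 ± 177 and 377 ± 335 CPM, Cebpb 288 ± 266 and 366 ± 494 CPM, and Apoe 307 ± 171 and 217 ± 77.1 CPM, in arthritic and non-immunized libraries. Cebpa averaged 2.98 ± 3.79 and 5.12 ± 4.34 CPM, Fabp4 55.6 ± 61.5 and 18.8 ± 16.0 CPM, Pparg 7.02 ± 6.69 and 18.2 ± 30.9 CPM, and Cd36 2.00 ± 2.99 and 0.421 ± 0.843 CPM. SDs were large beside the means, and ranges overlapped for all 8 genes. Log2 differences ran from -1.37 for Pparg (SE 1.95) to 2.18 for Cd36 (SE 2.00), so changes of several-fold in either direction lie within 2 SE of the estimates. For Pparg and Lpl the sign turned without library 1, to 1.32 and 0.35, and for Cebpb without library 2, to 1.25.

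Among the 9 CD200+ libraries, Adipoq and Lpl varied together. Over the 15 pairs of the 6 members found in at least 8 of these libraries, log2(CPM + 0.5) of Adipoq and Lpl had Pearson's r = 0.930 (exact permutation p = 0.000408, adjusted 0.00612) and Spearman's rho = 0.917 (p = 0.00131, adjusted 0.0197). Without libraries 1 and 2, the farthest from the median of Adipoq, r was 0.865. No other pair passed the adjustment: Pparg and Fabp4 had the next highest r, 0.674 (exact permutation p = 0.0473, adjusted 0.352). Adipoq and Cebpb had r = -0.353 (exact permutation p = 0.349). The pairs pool arthritic and non-immunized libraries, since groups of 5 and 4 are too small for an r of their own. Arthritic library 6 and non-immunized libraries 1 and 3 led for both genes, while non-immunized library 2 was lowest in both.

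**Figure D4:**
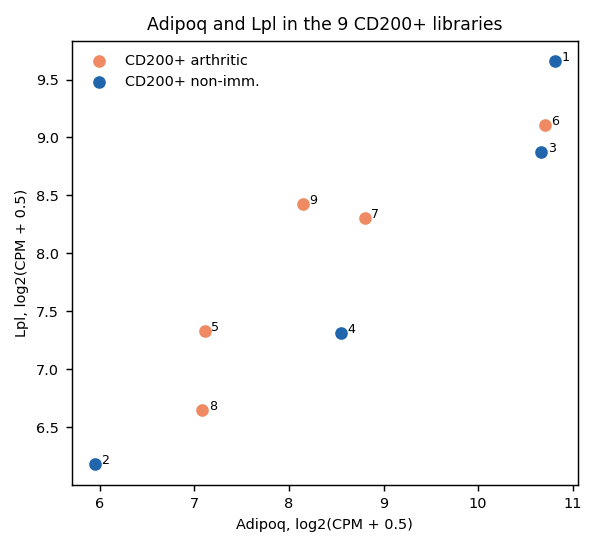
Lpl against Adipoq as log2(CPM + 0.5) in the 9 CD200+ libraries, labelled by library number, with arthritic and non-immunized libraries in separate colours. Libraries 1, 3 and 6 are high in both genes and library 2 is lowest in both (r = 0.930).

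Other genes of the adipogenic and lipid pathways were taken from 9 lists with 107 genes besides the members, of which 88 passed the low-count filter. In arthritic CD105+ against arthritic CD200+ cells, 10 were lower (11.4% of those tested) and 1 was higher (1.14%), beside 6.48% and 4.79% of all tested genes. Their median log2 fold change was -1.35, against -0.05 over all tested genes. Against non-immunized CD200+ cells 12 were lower (13.6%) and 0 higher, beside 7.63% and 5.57% of all tested genes. With spike-in library sizes 2 pathway genes stayed called in each of these comparisons, Fitm1 and Rbp4.

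Of the 19 tested transcription factors of adipogenesis other than the members, 3 were lower and 0 higher in arthritic CD105+ than in arthritic CD200+ cells. The shares over all tested genes were 6.48% lower and 4.79% higher. Cebpd, the early partner of Cebpb, averaged 37.5 ± 25.5 CPM in CD105+ and 1100 ± 688 CPM in CD200+ libraries (log2 fold change -4.87, SE 0.96, edgeR adjusted p = 0.00675). Its CD105+ libraries lay between 9.09 and 65.0 CPM, below the lowest arthritic CD200+ library at 247 CPM. Groups were apart in this direction for 6.33% of all tested genes. Klf9 averaged 12.2 ± 5.93 and 81.3 ± 25.6 CPM (-2.73, SE 0.55, adjusted p = 0.00774). Ebf3, a factor of marrow stromal progenitors in mice, averaged 0.924 ± 1.23 and 44.8 ± 16.7 CPM (-5.57, SE 1.35, adjusted p = 0.0178). Of 8 tested adipogenesis inhibitors none passed in either direction, with Nr2f2 at 2.04 and 16.6 CPM, Klf2 at 36.6 and 97.7 CPM and Twist1 at 0.708 and 3.75 CPM in arthritic CD105+ and CD200+ libraries.

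Droplet and storage genes divided. Fitm1, which helps to bud lipid droplets from the endoplasmic reticulum, was at 0 in all arthritic CD105+ libraries and at 20.7 to 69.5 CPM in arthritic CD200+ libraries. It was at least 882-fold lower in CD105+ cells (edgeR adjusted p = 0.000205). G0s2, an inhibitor of the lipase Pnpla2, averaged 13.2 ± 26.2 CPM in CD105+ and 311 ± 72.4 CPM in CD200+ libraries, with 60.1 CPM in library 11 and at most 3.10 CPM in the other CD105+ libraries. Its difference missed the threshold with all libraries (adjusted p = 0.0535) and passed without library 11 (adjusted p = 0.00307). Bscl2 averaged 88.6 CPM in CD105+ and 47.8 CPM in CD200+ libraries (adjusted p = 0.152). Of 4 tested lipolysis genes none passed, where 6.48% of all tested genes were called lower and 4.79% higher. Point estimates were below 0 for 3 of the 4. Lipa averaged 10.2 and 15.3 CPM and Pnpla2 11.2 and 13.6 CPM in arthritic CD105+ and CD200+ libraries. Mgll, which cleaves monoglycerides, was at 97.4 to 138 CPM in arthritic CD105+ and 0 to 61.3 CPM in arthritic CD200+ libraries (log2 fold change 2.63, SE 1.21, edgeR adjusted p = 0.179). Its groups did not overlap, as for 10.4% of all tested genes in this direction.

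Beside 4.79% of all tested genes, 1 of 16 tested in lipid uptake and transport was called higher in arthritic CD105+ cells. This was Acsl5, a fatty acyl-CoA synthetase, with 218 ± 84.9 CPM in CD105+ and 13.1 ± 16.5 CPM in CD200+ libraries (log2 fold change 4.04, SE 1.20, edgeR adjusted p = 0.0444). Scarb1, the receptor for high-density lipoprotein, was at 25.1 to 176 CPM in CD105+ and 0 to 16.7 CPM in CD200+ libraries. It did not pass (edgeR adjusted p = 0.130), and its groups did not overlap, as for 10.4% of all tested genes in this direction. Of 16 tested genes of fatty acid and triglyceride synthesis, 2 were called lower in CD105+ cells, beside 6.48% of all tested genes. Both were at 0 in CD105+ libraries, and the groups overlapped because some arthritic CD200+ libraries were at 0 as well. Counts were found in 4 of the 5 arthritic CD200+ libraries for Thrsp and in 3 for Acacb. Thrsp averaged 22.4 ± 16.3 CPM and Acacb, an acetyl-CoA carboxylase, 1.77 ± 2.23 CPM in arthritic CD200+ libraries, giving at least 469-fold (adjusted p = 0.0411) and at least 37.0-fold (adjusted p = 0.0450) lower levels in CD105+ cells. Library 5 carried 61.6% of the Acacb level, and without it the bound was at least 17.8-fold. Car3, in the adipocyte marker list, averaged 0.966 ± 1.32 and 35.03 ± 33.3 CPM in CD105+ and CD200+ libraries (-5.13, SE 1.56, adjusted p = 0.0492). Calls of Acsl5, Thrsp, Acacb and Car3 were lost when most single libraries were left out, with adjusted p up to 0.0934.

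Adipokines and their receptors gave 3 genes called lower of 7 tested, beside 6.48% of all tested genes. Lepr, the leptin receptor, was at 0 to 4.36 CPM in arthritic CD105+ libraries and 58.1 to 288 CPM in arthritic CD200+ libraries (log2 fold change -6.84, SE 1.52, edgeR adjusted p = 0.0121). Cdh13, T-cadherin, the surface protein that binds adiponectin, averaged 7.25 ± 7.51 and 149 ± 34.2 CPM (-4.38, SE 1.09, adjusted p = 0.0204), and its call was lost without library 13 or 14 (adjusted p up to 0.0539). Rbp4, the retinol carrier secreted by fat and liver, was at 0 in CD105+ libraries and 46.4 ± 56.7 CPM in CD200+ libraries, at least 970-fold lower (adjusted p = 0.0179). 1 arthritic CD200+ library was at 0 for Rbp4 as well, and without library 9, which carried 60.2% of its level, the bound was at least 483-fold. The marrow stromal progenitor list of 8 genes, which shares Lepr and Ebf3, summed to 47.9 to 642 CPM in arthritic CD105+, 1754 to 2085 CPM in arthritic CD200+ and 911 to 5211 CPM in non-immunized CD200+ libraries. Of 9 tested apolipoprotein and cholesterol export genes none passed, where 6.48% of all tested genes were called lower and 4.79% higher. Ch25h averaged 0 and 5.05 CPM (adjusted p = 0.0871), Nr1h2 41.4 and 12.5 CPM (adjusted p = 0.117) and Abca1 5.70 and 36.9 CPM (adjusted p = 0.265) in arthritic CD105+ and CD200+ libraries.

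**Figure D5:**
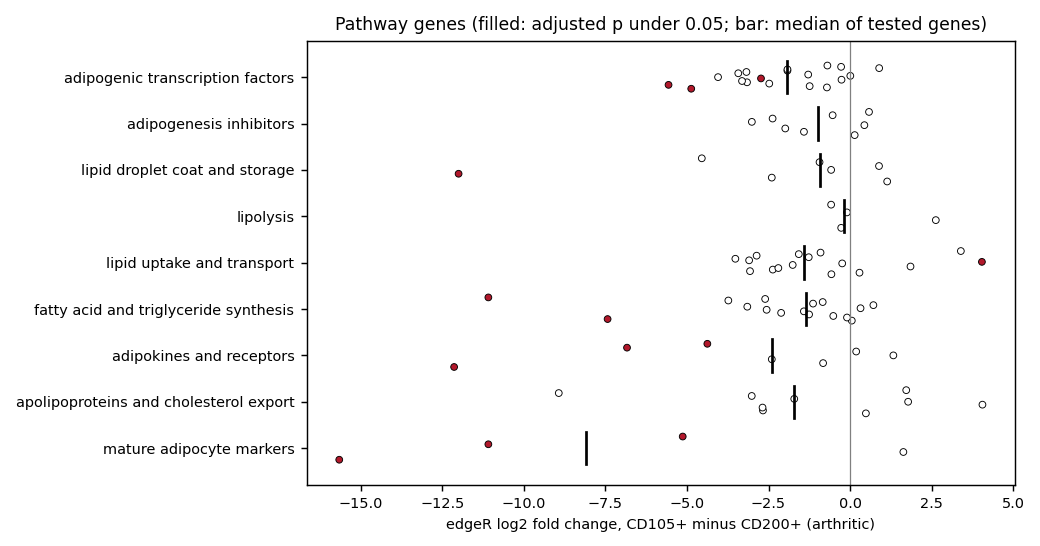
edgeR log2 fold changes of the tested pathway genes by list for arthritic CD105+ minus arthritic CD200+ cells; points are genes, filled where the adjusted p is under 0.05, and bars are list medians. The adipocyte marker list includes the member Adipoq at a fitted -15.67; Acsl5 at 4.04 is the 1 filled point above 0.

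Against non-immunized CD200+ cells, Nr3c1, the glucocorticoid receptor, Vldlr and Lrp1, which belong to the lipoprotein receptor family, were also called lower in arthritic CD105+ cells. Nr3c1 averaged 40.4 CPM in arthritic CD105+ and 130 CPM in non-immunized CD200+ libraries (log2 fold change -1.68, SE 0.47, edgeR adjusted p = 0.0299). Whether the Nr3c1 call holds with single libraries left out is not given here. Vldlr averaged 3.92 and 260 CPM (-6.03, SE 1.57, adjusted p = 0.0228), with its call lost without library 1 or 14. Lrp1 averaged 44.2 and 181 CPM (-2.03, SE 0.60, adjusted p = 0.0400), a call lost without any one of 9 libraries.

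Between arthritic and non-immunized CD200+ cells, 0 of the 88 tested pathway genes passed, and their median log2 fold change was -0.05 beside -0.10 over all tested genes. Among the droplet genes, G0s2 was at 190 to 383 CPM in arthritic and 34.7 to 113 CPM in non-immunized CD200+ libraries (log2 fold change 1.85, SE 1.37, edgeR adjusted p = 1.0). Hilpda, a droplet protein induced by low oxygen, was at 48.6 to 105 and 0 to 47.8 CPM (1.71, SE 1.05, adjusted p = 1.0). Vldlr, the receptor for very low density lipoprotein, was at 0 to 70.8 CPM in arthritic and 83.9 to 530 CPM in non-immunized libraries (-2.93, SE 1.38, adjusted p = 0.826). The groups were apart for these 3 genes, higher in arthritis for G0s2 and Hilpda and lower for Vldlr. Of all tested genes, 1.11% were apart in the higher and 1.18% in the lower direction. The 3 genes were named for an edgeR p among the smallest of their lists, so no excess over these shares can be read from them. Car3 averaged 35.03 CPM in arthritic and 252 CPM in non-immunized libraries with overlap (-2.84, SE 1.43, adjusted p = 0.899), and Mgll 18.8 and 79.6 CPM (-2.07, SE 1.22, adjusted p = 1.0). Klf5 averaged 9.21 and 0.349 CPM (adjusted p = 0.762), and Ppargc1a, found in libraries 7 and 8 of the CD200+ libraries, 3.20 and 0 CPM (adjusted p = 0.674).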

How the data were processed

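Whole-number counts per gene were deposited for all 14 libraries. Per the submitters' processing notes, cutadapt, HISAT2, StringTie and edgeR were used with the builds GRCm38 and mm10; versions, strand setting and roles are not given in the sources used here. Of 47821 deposited count entries 92 were spike-ins. GENCODE M21 (GRCm38) gave symbols and positions for 47224 IDs. A deposited table named as filtered held 14322 entries, all identical to the raw counts, and served only as an alternative choice of genes.

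Gene counts without spike-ins were the library sizes, and 3 counts in 1 library equal 0.162 to 1.03 CPM before scaling. edgeR 4.0.16 (R 4.3.3) kept 15015 genes (filterByExpr, minimum count 10), scaled them by TMM and fitted 3 groups with robust quasi-likelihood (common biological coefficient of variation 1.28). Two-sided tests were adjusted over all tested genes (Benjamini-Hochberg, threshold 0.05). The SE is the absolute log2 fold change divided by the square root of F. CPM are TMM-scaled. DESeq2 1.42.0 and limma 3.58.1 (voom) were alternatives, with other scalings, filters and left-out libraries. No pair of libraries in a group held identical counts. The floor of 3 counts covers counting error only.

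The genes and lists were chosen with earlier results of these data known. The 10 genes are named throughout; from each list the 3 tested genes with the smallest edgeR p per comparison, with sort markers and the 3 most abundant genes of each marker list, could be named. The CCAAT motif and the correlations were added after seeing the data.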

Additional observations from a re-analysis of the deposited data

Results flagged for a closer look

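For the 10 genes, 24 groups of libraries with at least 1 count were examined for a library far from the rest of its group, and 14 held one. In 4 of the 14 the gene had counts in 1 library only, which makes such a gap certain. For the other 10, the nominal rate of chance flags is about 1 in 20 groups. That rate was not tested on CPM as uneven as these, so no excess over chance is read from the 10. Library 11 was the high one in the arthritic CD105+ group for Pparg (3.24 CPM, next 0), Cebpa (0.660 CPM, next 0), Lpl (103 CPM, next 8.22) and Apoe (193 CPM, next 13.7). Library 10 was high for Cd36 in that group (52.6 CPM, next 22.7). In arthritic CD200+ cells library 6 was high for Cebpb (745 CPM, next 274), Adipoq (1670 CPM, next 446) and Fabp4 (159.9 CPM, next 51.9). Library 5 was high for Pparg (18.6 CPM, next 5.68), and library 9 for Cebpa (9.59 CPM, next 2.25) and Cfd (0.379 CPM, next 0). In non-immunized CD200+ cells library 1 was high for Pparg (64.4 CPM, next 6.51) and Cd36 (1.69 CPM, next 0), and library 2 for Cebpb (1104 CPM, next 188). Libraries 2, 5 and 6 are those with over 80% spike-in counts, and library 11 is the one with the macrophage markers; the part of either in these values was not tested.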

How the results depend on the processing

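No paired analysis was possible because every library has a number of its own and the labels name no shared animal. Adipoq stayed called in both CD105+ comparisons under the 24 alternatives run, single libraries left out included. Its fitted log2 fold changes, which depend on how a group at 0 is treated, were -15.98 to -12.87 against arthritic and -17.13 to -14.68 against non-immunized CD200+ cells, with limma voom nearest 0 in both. Counts of calls moved more, given here as members, pathway genes and all genes. In arthritic CD105+ against arthritic CD200+ cells (1, 11 and 1692), DESeq2 called 3, 19 and 3527 and limma voom 7, 31 and 4624. Spike-in sizes left 2 pathway genes and 545 genes in all, no filter left 7 pathway genes, and a fit of the 2 groups alone left 6. Leaving out single libraries gave 1 to 4, 6 to 10 and 1090 to 1794, with 4 members without library 11 and 1090 genes without library 14. In arthritic CD105+ against non-immunized CD200+ cells (1, 12 and 1982), DESeq2 called 6, 21 and 4047 and limma voom 7, 33 and 4993, and spike-in sizes left 2 pathway genes and 278 in all. Leaving out single libraries gave 1 to 5, 8 to 14 and 1308 to 2353, with 5 members without library 11, 2 without library 1 and 1308 genes without library 14. In arthritic against non-immunized CD200+ cells, DESeq2 called 347 genes and limma voom 4, and leaving out single libraries gave 0 to 0 members, 0 to 0 pathway genes and 0 to 2 genes in all, 2 without library 3.

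Spike-in sizes moved the median log2 fold change of all genes to 1.22 and 1.21 in the CD105+ comparisons, and RLE factors moved it to -0.27, -0.14 and -0.50 in the arthritic against non-immunized CD200+, the CD105+ against arthritic CD200+ and the CD105+ against non-immunized CD200+ comparison. Signs turned, none of them past a threshold, as follows. With spike-in sizes in arthritic CD105+ against arthritic CD200+ cells they were Fabp4 0.0038, Klf2 0.21, Lipa 0.86 and Pnpla2 0.93. Against non-immunized CD200+ cells the turned sign was Fabp4 0.43. Each of these values lies below the median of all genes on that scale (1.22 and 1.21), which says nothing of how far each gene moved. Limma voom gave Lipa 0.13, and leaving out the libraries over 80% spike-ins gave Pnpla2 0.039. In arthritic against non-immunized CD200+ cells, limma voom gave Cebpb 0.30, Apoe -0.26 and Cdh13 0.28, and leaving out the libraries over 80% spike-ins gave Cebpb 0.22, Fabp4 -0.027, Cdh13 0.29 and Dgat2 0.30. With single libraries left out the ranges there were -2.14 to 1.32 for Pparg, -1.07 to 1.25 for Cebpb, -0.72 to 0.35 for Lpl, -1.33 to 0.40 for Cdh13 and -2.52 to 7.39 for Slc2a4, and for Pnpla2 between arthritic populations -1.28 to 0.13. The cause was not tested. The libraries over 80% spike-ins have the fewest gene counts among CD200+ libraries.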
